A study of Arabidopsis thaliana with 119 samples.

Results

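Combined shortage of water and nitrate was examined in Bur-0, a natural inbred accession of Arabidopsis thaliana, by comparing the 6 rosette libraries labelled W-N- with the 5 labelled W+N+, together 11 of the 23 libraries of that accession; the study holds 96 more from Col-0, Cvi-0, Sha and Tsu-0. The labels name no transgene or added allele in any of the 5 accessions, and each was grown under 4 regimes of supply. All plants were grown in short days of 8 h light, spent 23 days on a robot that moves and waters pots, and were sampled at 31 days after sowing. In the control regime (W+N+) a pot was given 160.45 ± 7.96 ml in all, at 5 mM nitrate. Combined stress (W-N-) meant 50.7 ± 4.1 ml at 1.5 mM. The 6 drought libraries (W-N+) came from plants given 50.85 ± 4.67 ml with 5 mM nitrate, and the 6 libraries of low nitrogen alone (W+N-) from plants given 161.93 ± 11.07 ml with 0.5 mM. Mean volume times concentration gives nitrate totals of 76.1 µmol for combined stress, 81.0 µmol for low nitrogen, 254 µmol for drought and 802 µmol for the control. W-N- plants thus differed from the controls in both supplies, had almost the nitrate total of W+N- plants in a stronger and smaller dose, and had the water of W-N+ plants with less nitrate. Each title also carries an experiment code, P3ID33 or P3ID34, and each group of Bur-0 has libraries of both. Nothing in the labels states that the libraries of a group stem from different plants; the spread behind each p-value is that among libraries and may be technical.

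Nitrate is taken up by roots and is both a nutrient and a signal: leaf cells that sense it switch on genes for its storage and reduction and repressors of the starvation programme, and cells that run short of nitrogen induce high-affinity transporters, recycle amino acids and accumulate anthocyanin. Water shortage acts largely through abscisic acid, whose receptors inhibit protein phosphatases and thereby release kinases that activate factors binding ACGTG elements in dehydration genes. Phosphate-starvation, sugar and jasmonate pathways share signals with both.

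The 6 combined-stress libraries held 14038906 to 39692929 counts and the 5 controls 17622236 to 55325148, a difference within their spread (exact two-sided permutation test, p = 0.433). Genes with a count numbered 20884 to 22359 and 20969 to 22248 (p = 0.862, exact permutation test). The rosette label held: summed levels of 8 leaf markers were 38868 to 61386 CPM (counts brought to a common library total after TMM scaling) under combined stress and 54759 to 80252 CPM in the control (p = 0.0217, exact permutation), while 10 root markers summed to at most 0.717 CPM, 12 flower markers to at most 2.86 CPM and 10 seed markers to at most 1.93 CPM in any of the 11. Of these, 2 root and 3 flower markers had no count in any of the 11 libraries. The flower markers summed to 1.04 to 1.83 CPM under stress and 1.66 to 2.86 CPM in the control. The 3 of them kept for testing summed to 0.7256 to 1.299 CPM and 1.278 to 2.495 CPM (p = 0.00866, exact permutation test). Of these 3, 2 were called lower under stress by edgeR. The part of flower markers in the results was not tested. In rosettes, fewer cells of a type and less RNA per cell cannot be told apart. Combined-stress library c (code P3ID33) stood apart from its group. Its root mean square distance to the mean of the other libraries of its group was 0.691 in log2 CPM, against 0.281 to 0.471 in the other 22 Bur-0 libraries. It carried the Bur-0 label correctly by 14 genes high and 14 genes low only in that accession, but short transcripts were relatively high in it (Pearson r of -0.454 between log2 transcript length and its difference from the other 5, a description across 19922 genes). Results that rest on it are given with and without it, except where stated.

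**Figure D1:**
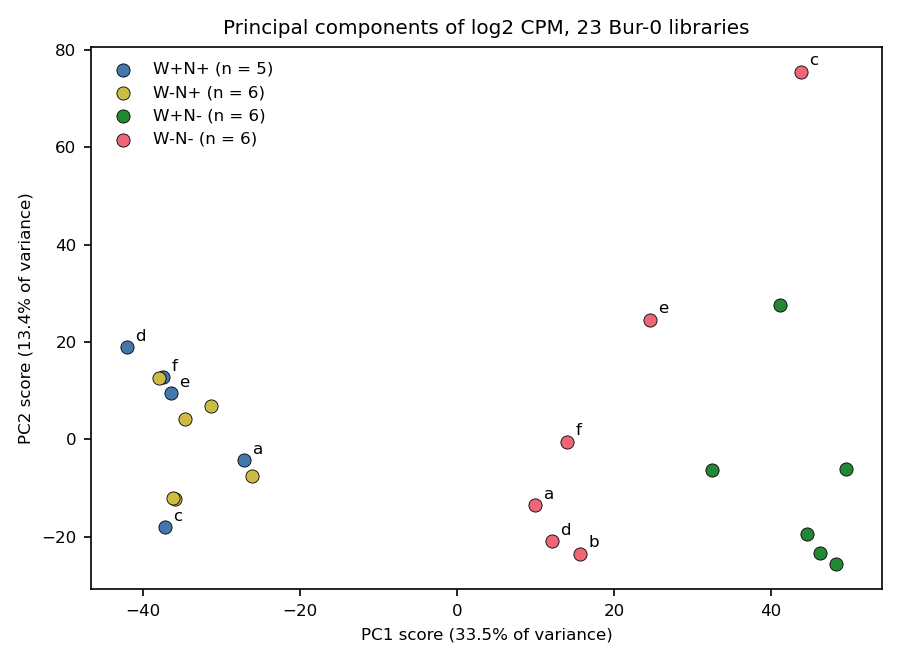
Scores of the 23 Bur-0 libraries on the first and second principal components of log2 CPM; letters name the libraries of the combined-stress and control groups. On the first component the 6 combined-stress libraries scored 9.99 to 43.8 and the 5 controls -42.1 to -27.1, and library c stood alone on the second component at 75.5.

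The combined stress changed 6451 of 20025 genes tested (32.2%) at an adjusted p below 0.05 in edgeR's quasi-likelihood test with Benjamini-Hochberg adjustment, 3527 higher (17.6%) and 2924 lower (14.6%). Most changes were modest: the median size among called genes was 0.55 on the log2 scale, 989 genes (4.94% of those tested) differed by at least 2-fold and 193 by at least 4-fold. Of the 989, 655 rose (3.27% of genes tested) and 334 fell (1.67%). All stressed libraries lay above all controls in 1686 genes (8.42%) and below them in 1816 (9.07%). Fits within either code gave the sign of the pooled fit for 6421 of the 6451 genes. Without library c, 5688 of 20033 genes were called (28.4%), 2775 higher (13.9%) and 2913 lower (14.5%). Of the 5688, 5279 were among the 6451, and 853 differed by at least 2-fold. Of the 6451, 3 had the opposite sign in the fit without library c, whether or not they were called there. In what follows a fold change is the log2 difference of W-N- from W+N+ ± its standard error, from a fit over the libraries of all accessions.

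The 12 largest rises were taken from called genes that averaged 5 CPM or more and kept one sign within either code. NUDT24, a hydrolase of the Nudix family, stood at 19.2, 22.3, 19.6, 24.7 and 19.97 CPM in the 5 controls and at 365 to 574 CPM (median 528) in the 6 combined-stress libraries. The groups lay far apart, and the gene rose by 4.58 ± 0.26 (edgeR adjusted p = 5.7e-29). VSP2, a vegetative storage protein of leaves induced by jasmonate, stood at 9.88, 6.24, 11.6, 5.26 and 13.9 CPM in the controls and at 134 to 206 CPM (median 187) under combined stress. All stressed libraries exceeded all controls, and it rose by 4.26 ± 0.59 (adjusted p = 4.1e-09); reads of VSP2 and its near copy VSP1 cannot be separated with certainty. AT1G34060, annotated as a pyridoxal phosphate-dependent transferase, rose by 4.08 ± 0.24, from 1.19, 1.95, 1.15, 1.254 and 1.47 CPM to 17.3 to 43.3 CPM (median 21.8). AT4G01390, a TRAF-like protein, rose by 3.28 ± 0.22 and AAE12, an acyl-activating enzyme, by 2.81 ± 0.32, each without overlap between groups.

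The 12 largest falls were chosen in the same way. PR1, the pathogenesis-related marker of salicylic acid signalling, stood at 161, 19.9, 71.7, 16.1 and 13.8 CPM in the controls and at 0.341 to 1.90 CPM (median 1.34) under combined stress. The controls themselves spread over a wide range, with library a the highest, but none came near the stressed libraries, and PR1 fell by 5.58 on the log2 scale (SE 0.70, adjusted p = 1.9e-10). ELIP2, an early light-induced protein that protects chloroplasts in strong light, stood at 31.7, 32.99, 72.7, 62.7 and 56.5 CPM in the controls and at 1.95 to 9.02 CPM (median 3.43) under stress (-3.57 ± 0.30, adjusted p = 6.5e-18). CER4, a fatty acyl reductase that makes the primary alcohols of leaf wax, changed by -2.67 ± 0.23 and AT2G40400, a DUF399 protein, by -2.56 ± 0.18. CYP81F2, which modifies indole glucosinolates, changed by -2.52 ± 0.36, and AT3G16530 and AT3G15356, both legume-type lectins, by -2.27 ± 0.32 and -2.23 ± 0.34. AT1G49500 and AT3G19030, both annotated only as similar to a transcription initiation factor subunit, changed by -3.04 ± 0.31 and -2.22 ± 0.33. Groups overlapped for a further pair of these 12 falls: PDF1.3, a defensin with 54.1, 8.91, 0.959, 0.896 and 0.262 CPM in the controls and 1.34, 1.08, 0, 3.03, 0 and 0 CPM in stressed libraries a to f, and CYP71B22 with 36.3, 26.2, 7.99, 9.62 and 10.5 CPM against 11.3, 7.61, 1.22, 8.28, 1.72 and 1.83 CPM. In both genes the libraries of code P3ID34 (controls a and c, stressed a, b and d) were above those of P3ID33 in the same group.

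**Figure D2:**
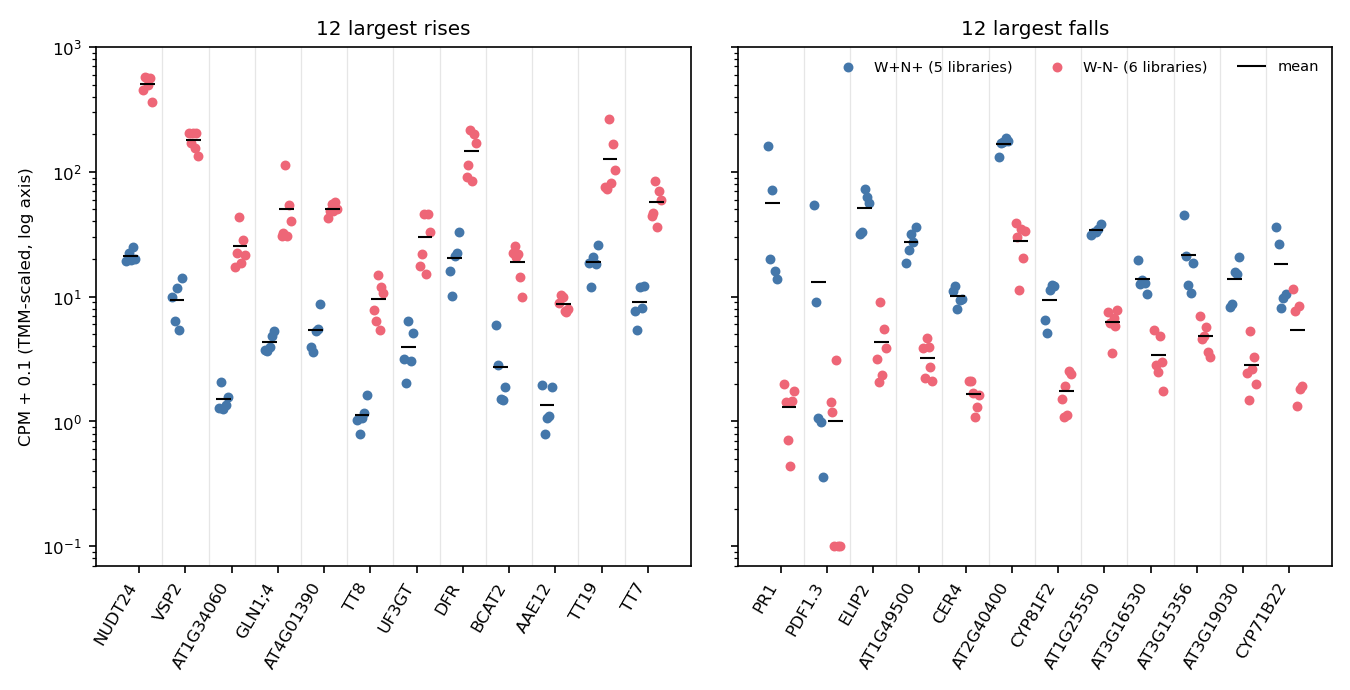
CPM in each of the 5 control and 6 combined-stress libraries for the 12 genes with the largest rises and the 12 with the largest falls, on a log axis with 0.1 added; bars are group means. The groups are apart for all but PDF1.3 and CYP71B22, and control levels of PR1 run from 13.8 to 161 CPM.

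Of 16 tested genes that mark nitrogen starvation, 9 rose and 1 fell, with a median of 0.84 against 0.048 over all genes tested. GLN1;4, a cytosolic glutamine synthetase that reassimilates ammonium, stood at 3.65, 3.56, 3.84, 4.72 and 5.24 CPM in the controls and at 30.5, 32.03, 114, 30.6, 54.4 and 40.3 CPM in stressed libraries a to f. Library c was the highest by far, and the rise was 3.60 ± 0.28 with it and 3.13 without it (adjusted p = 2.2e-20 and 2.1e-19). NRT2.5, the high-affinity nitrate transporter of starved plants, stood at 0.254, 0.253, 0, 0.299 and 0.105 CPM in the controls and at 1.01 to 2.37 CPM (median 1.96) under stress (3.34 ± 0.50). DUR3, a urea transporter, rose by 1.75 ± 0.18, NIT4, a nitrilase that degrades cyanoalanine, by 2.15 ± 0.20, and GLN1;1, another cytosolic glutamine synthetase, by 1.21 ± 0.14.

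Of 24 tested genes of the nitrate response, 11 fell and 3 rose (median -0.53). AT1G25550, a Myb-like transcription factor, stood at 30.9, 32.9, 32.7, 34.7 and 38.4 CPM in the controls and at 3.44 to 7.73 CPM (median 6.39) under combined stress (-2.38 ± 0.21, adjusted p = 8.6e-17). LBD39, a repressor of nitrogen-starvation genes that nitrate induces, changed by -1.98 ± 0.28, CLCA, which loads nitrate into the vacuole, by -1.44 ± 0.17, CIPK3, a calcineurin B-like interacting kinase, by -1.01 ± 0.13, and BT2, a nitrate-responsive scaffold protein, by -2.59 ± 0.38. The nitrate reductases did not pass the test: NIA1 had -0.33 ± 0.26 (adjusted p = 0.36) and NIA2 -0.30 ± 0.20 (adjusted p = 0.26), a pair named outside the naming rule after their values were seen.

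Ammonium assimilation was mixed, with 4 members higher and 4 lower of 13, and 3 and 4 without library c. Of all genes tested, 17.6% were higher and 14.6% lower. The plastid glutamine synthetase GLN2 (-0.35 ± 0.069), the asparagine synthetase ASN2 (-0.90 ± 0.15) and the aspartate aminotransferase ASP5 (-0.40 ± 0.074) fell. The glutamate dehydrogenases GDH1 (0.55 ± 0.11) and GDH3 (1.98 ± 0.39) rose, both with overlapping groups. Breakdown of branched-chain amino acids, which feeds carbon skeletons to respiration, had 8 of 16 members higher and none lower. BCAT2, the aminotransferase at its start, stood at 5.85, 2.73, 1.41, 1.37 and 1.78 CPM in the controls and at 9.80 to 25.1 CPM (median 21.2) under stress, a rise of 2.88 ± 0.28 (adjusted p = 3.5e-15). AT1G21400, annotated as a thiamine diphosphate-binding protein, rose by 0.99 ± 0.14, and the electron transfer flavoprotein subunits ETFALPHA and ETFBETA by 0.42 ± 0.11 and 0.46 ± 0.11.

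The pathway to anthocyanin rose from its regulators to its late enzymes. Of 21 tested flavonoid enzymes, 18 were higher and none lower (median 0.95, and 0.81 without library c), and of 13 regulators 8 were higher and 1 lower. PAP1, the Myb factor that switches on the late genes, stood at 11.4, 14.2, 15.5, 19.6 and 14.9 CPM in the controls and at 60.9 to 187 CPM (median 70.1) under stress (2.62 ± 0.27). TT8, its basic helix-loop-helix partner, rose by 3.21 ± 0.23 from 0.933, 0.687, 0.959, 1.08 and 1.52 CPM to 5.34 to 14.9 CPM (median 9.16), and the related EGL3 by 0.50 ± 0.14. DFR, which reduces dihydroflavonols at the entry to the anthocyanin branch, stood at 15.98, 10.02, 21.03, 22.3 and 33.1 CPM and at 90.2, 113, 217, 83.9, 199 and 169.9 CPM in stressed libraries a to f. Library c was the highest, e and f followed, and even the lowest stressed library was over the highest control; DFR rose by 2.89 ± 0.22 (adjusted p = 5.2e-20). LDOX (2.53 ± 0.20), the next enzyme, UF3GT (3.01 ± 0.22), a glycosyltransferase of anthocyanins, TT19 (2.74 ± 0.24), a glutathione transferase needed to carry pigment to the vacuole, TT7 (2.72 ± 0.20), the flavonoid hydroxylase, and AT4G14090 (2.48 ± 0.21), annotated as a UDP-glycosyltransferase superfamily member, moved alike. For these the stressed libraries of code P3ID33 (c, e and f) were all above those of P3ID34 (a, b and d); within P3ID33 alone the DFR change was 2.91 and within P3ID34 alone 2.89.

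Promoters of a few responding genes are shown with motif letters, as found in the 250 bases before the annotated gene start of the Columbia reference, from the RefSeq annotation of the TAIR10.1 assembly, which is not the Bur-0 sequence. Bases are in 5′ to 3′ direction of the gene, and capitals mark the letters CACGTG (the G-box, a binding site for basic helix-loop-helix and bZIP factors, equal on both strands) in a pair of anthocyanin genes that rose together. These promoters were chosen after the matches were seen.
DFR (chr5:17166033-17166282, minus strand): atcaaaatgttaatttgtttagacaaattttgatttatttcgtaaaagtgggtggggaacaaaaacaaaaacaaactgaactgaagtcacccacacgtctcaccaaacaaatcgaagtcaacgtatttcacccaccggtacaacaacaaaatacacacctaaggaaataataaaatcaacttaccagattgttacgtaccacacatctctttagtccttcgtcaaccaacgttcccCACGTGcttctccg
UF3GT (chr5:21938397-21938646, minus strand): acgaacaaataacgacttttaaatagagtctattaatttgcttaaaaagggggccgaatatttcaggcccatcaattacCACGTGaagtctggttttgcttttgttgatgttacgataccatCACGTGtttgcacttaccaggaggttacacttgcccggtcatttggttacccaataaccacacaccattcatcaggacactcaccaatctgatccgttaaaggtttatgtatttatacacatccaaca
The G-box letters began 14 bases before the start in DFR and 171 and 128 bases before it in UF3GT, and the windows of TT19 and TT7 held none. They were present in 4 of 21 (19%) of the flavonoid promoters, in 349 of 3527 (9.9%) of promoters of genes called higher, in 189 of 2923 (6.47%) of those called lower and in 1459 of 19921 (7.32%) of all tested genes with a window. A match is a description of letters and not a mapped binding site.

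Dehydration genes that follow abscisic acid were higher, 23 of 37 tested and 1 lower (median 0.65). Against the same controls, low nitrogen alone had 20 of the 37 higher and 9 lower (median 0.67). Drought alone had 6 higher and 1 lower (median 0.36). In the direct contrast of combined stress with low nitrogen alone, 11 of the 37 were higher and 1 lower. Of all genes tested, 3.65% and 3.26% were so called in that contrast. The part of water supply in the rise was not tested. RD20, a caleosin of lipid droplets and a standard drought marker, stood at 25.9, 25.3, 28.9, 31.8 and 29.8 CPM in the controls and at 80.1 to 182 CPM (median 92.8) under combined stress. No library overlapped, and it rose by 1.95 ± 0.20 (adjusted p = 5.5e-14). LEA14, a late embryogenesis abundant protein, rose by 1.096 ± 0.16, the bZIP factors ABF3 and ABF2, which bind the ACGTG element, by 0.80 ± 0.12 and 0.57 ± 0.10, and ABI1, a phosphatase that the receptors inhibit, by 0.49 ± 0.092. The summed level of the list was 3105 to 9083 CPM under stress, with library c at the top, and 2108 to 2403 CPM in the controls; without library c the counts were 23 higher and 2 lower.
RD20 (chr2:14146556-14146805, minus strand): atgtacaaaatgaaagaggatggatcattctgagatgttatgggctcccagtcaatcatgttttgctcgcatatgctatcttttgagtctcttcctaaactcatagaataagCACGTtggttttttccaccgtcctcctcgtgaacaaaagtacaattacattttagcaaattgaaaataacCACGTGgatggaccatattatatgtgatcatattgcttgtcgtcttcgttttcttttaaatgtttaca
In this window capitals mark ACGTG or its reverse complement CACGT, the core of the abscisic acid response element, which began 138, 68 and 67 bases before the start; the last pair overlap in a G-box. The core was present in 21 of 37 (56.8%) of the promoters of dehydration genes and in 4616 of 19921 (23.2%) of all tested genes.

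Of 9 abscisic acid receptors, 5 fell and 1 rose. PYL6 stood at 3.86, 4.21, 2.11, 1.91 and 2.52 CPM in the controls and at 0.345 to 0.616 CPM (median 0.538) under combined stress (-2.67 ± 0.33, adjusted p = 8.8e-11), and PYL5, PYL2 and PYL8 changed by -1.09 ± 0.24, -0.76 ± 0.20 and -0.60 ± 0.12 with overlapping groups. PYL9 was the member that rose (0.82 ± 0.14). Among 8 genes for proline, an osmolyte of dry leaves, 1 was higher, the transporter PROT1 (0.56 ± 0.16). Lower were 2, the synthesis enzymes P5CS2 (-0.84 ± 0.12) and P5CR (-0.37 ± 0.092). Of all genes tested 17.6% were higher and 14.6% lower, so the proline list had no clear excess of calls. P5CS1, the stress-induced synthesis enzyme, named here outside the rule after its values were seen, had -0.30 ± 0.20 (adjusted p = 0.27). Galactinol synthases, which start the raffinose series of osmoprotectants, rose, GOLS2 by 1.84 ± 0.26, GOLS1 by 1.60 ± 0.31 and GOLS3 by 1.11 ± 0.20. Among trehalose phosphate synthase-like proteins TPS5 rose by 0.97 ± 0.13 and TPS11 changed by -0.66 ± 0.22; this list of 11 had 5 higher and 4 lower, and 5 and 2 without library c.

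Phosphate-starvation genes divided, 5 of 21 higher and 7 lower. PAP17, a purple acid phosphatase secreted by starved plants, stood at 32.4, 32.5, 17.6, 17.5 and 12.3 CPM in the controls and at 4.97 to 11.5 CPM (median 7.17) under combined stress (-1.59 ± 0.18, adjusted p = 3.2e-12). GDPD1, a glycerophosphodiester phosphodiesterase that releases phosphate from lipids, stood at 7.80, 5.51, 2.301, 2.33 and 1.89 CPM and at 0.382 to 0.913 CPM (median 0.870) (-2.36 ± 0.30). Control libraries a and c, both of code P3ID34, were the highest for GDPD1 and PAP17, and stressed libraries were below all controls for both. SPX1, a phosphate sensor that represses the response, changed by -1.18 ± 0.20 and SQD1, an enzyme of sulfolipid synthesis, by -0.57 ± 0.10, while GDPD5 rose by 0.70 ± 0.11. PS2, an inorganic pyrophosphatase induced in the same response, also rose: it stood at 0.594, 0.759, 1.09, 0.956 and 0.367 CPM in the controls and at 1.51, 2.44, 5.43, 1.84, 2.503 and 2.68 CPM in stressed libraries a to f (1.85 ± 0.37, adjusted p = 3.4e-05).
GDPD1 (chr3:350011-350260, minus strand): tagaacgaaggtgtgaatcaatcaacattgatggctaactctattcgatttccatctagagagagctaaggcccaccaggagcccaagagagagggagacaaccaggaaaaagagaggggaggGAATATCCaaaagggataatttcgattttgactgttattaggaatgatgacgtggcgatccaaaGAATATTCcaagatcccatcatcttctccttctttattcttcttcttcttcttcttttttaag
PS2 (chr1:27466349-27466598, minus strand): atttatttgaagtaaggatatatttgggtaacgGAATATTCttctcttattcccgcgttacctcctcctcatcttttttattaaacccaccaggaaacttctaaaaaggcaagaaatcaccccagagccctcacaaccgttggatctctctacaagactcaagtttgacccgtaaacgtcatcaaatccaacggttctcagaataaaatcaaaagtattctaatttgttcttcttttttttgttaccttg
Here capitals mark GNATATNC, the P1BS element of phosphate-starvation factors, searched on both strands. It began 127 and 63 bases before the start of GDPD1, which fell, and 217 bases before that of PS2, which rose. It was present in 8 of 21 (38.1%) of the promoters of the list and in 1087 of 19921 (5.46%) of all tested genes, and the PAP17 window held none.

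Of 26 genes of starch metabolism, 14 rose and 2 fell. The rises were in genes of both starch synthesis and starch breakdown, among them GBSS1, the granule-bound starch synthase (1.62 ± 0.17), the ADP-glucose pyrophosphorylase subunits APL4 (1.48 ± 0.18) and APL3 (1.29 ± 0.18), and, both known for starch breakdown, the debranching enzyme ISA3 (1.32 ± 0.17) and the beta-amylase BAM1 (0.83 ± 0.11). Sugar transporters had 6 of 10 higher and 1 lower: SWEET13, SWEET4 and SWEET12, which export sugars from cells, rose by 1.246 ± 0.16, 1.24 ± 0.18 and 1.14 ± 0.18, STP13, a hexose importer, by 0.67 ± 0.14, and ERDL6, a vacuolar exporter, fell (-0.59 ± 0.12). Genes induced by sugar starvation had 7 of 11 lower and none higher, with BZIP63 at -0.93 ± 0.19 and DIN10, a raffinose synthase-like protein, at -1.40 ± 0.36.

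All 22 tested ribosomal protein genes were lower, within a range of -0.98 to -0.56. RPL5A, a protein of the large subunit, stood at 589, 545, 601, 523 and 532 CPM in the controls and at 267 to 319 CPM (median 300.4) under stress (-0.91 ± 0.11, adjusted p = 8.3e-11). The Calvin cycle had 18 of 20 members lower and none higher; GAPA and GAPB, the subunits of its glyceraldehyde phosphate dehydrogenase, changed by -0.65 ± 0.086 and -0.47 ± 0.086, and RBCS1B, a small subunit of Rubisco whose reads may be shared with near copies, by -1.80 ± 0.26. Of 40 photosystem and ATP synthase genes, 6 were lower and none higher (median -0.16), a share of lower calls near the 14.6% of all genes, with ATPD at -0.64 ± 0.12 and PSBQ1 at -0.57 ± 0.12. Of the 8 leaf markers, 4 were lower, and the part of a changed share of leaf tissue in the values of these lists was not tested.

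Growth genes fell in part. Cell division had 7 of 18 lower, among them the Aurora kinase AUR1 (-0.67 ± 0.16) and the mitotic cyclin CYCB1;2 (-0.43 ± 0.14). Aquaporins, the water channels of membranes, had 6 of 17 lower and 1 higher, TIP2;1 of the vacuole at -0.99 ± 0.19, PIP1;5 at -0.43 ± 0.084 and PIP2;5 at 0.49 ± 0.12. Expansins, which loosen cell walls, had 1 of 10 higher, EXPA16 (1.84 ± 0.26), and 3 lower, EXPA8 (-1.92 ± 0.32), EXPA1 (-0.79 ± 0.16) and EXPA11 (-0.77 ± 0.17). The cytokinin list had 3 higher and 5 lower of 17, beside 17.6% higher and 14.6% lower of all genes tested. In it the nitrate-induced synthesis enzyme IPT3 fell (-1.71 ± 0.21) and its relative IPT7 rose (2.14 ± 0.38). The response regulators ARR6 and ARR9 fell (-0.78 ± 0.18 and -0.79 ± 0.20).

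Defence genes did not move as a block. Salicylate genes had 5 of 23 higher and 3 lower, shares near the 17.6% higher and 14.6% lower of all genes tested. With PR1 fell PR5 (-1.64 ± 0.30) and PR2 (-1.14 ± 0.32). PBS3, which acts in salicylic acid synthesis, rose by 0.63 ± 0.12 and the wall-associated kinase WAK1 by 0.86 ± 0.22. Jasmonate genes had 10 of 24 higher and none lower: beside VSP2, the synthesis enzymes LOX2 (0.91 ± 0.25), OPR3 (1.18 ± 0.27) and OPCL1 (0.69 ± 0.20) and the repressor JAZ12 (0.56 ± 0.12) rose. LOX2 stood at 675, 545, 738, 596 and 849 CPM in the controls and at 891 to 1953 CPM (median 1175) under stress, without overlap. The ethylene and jasmonate defence list had 1 of 6 higher, the factor ERF1 (1.85 ± 0.57), and 2 lower, the chitin-binding HEL (-1.43 ± 0.26) and the factor ORA59 (-0.90 ± 0.35), all with overlapping groups.

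Aliphatic glucosinolate synthesis, which makes the methionine-derived mustard oil precursors, rose nearly throughout, 21 of 22 members higher and none lower (median 0.58). MAM1, which elongates the methionine side chain, stood at 535, 669, 550.5, 534 and 687 CPM in the controls and at 865 to 1229.7 CPM (median 1080.2) under stress (0.84 ± 0.12, adjusted p = 2.6e-08). BCAT4, at the start of that elongation, rose by 0.95 ± 0.13, IMD1, its dehydrogenase, by 0.73 ± 0.11, and CYP79F1 and CYP79F2, a pair of near copies that begin the core structure, by 0.82 ± 0.10 and 0.76 ± 0.091. The indole branch had 4 of 11 higher and 1 lower, and 2 and 1 without library c; CYP79B2 and CYP79B3, at its entry, rose by 0.72 ± 0.21 and 0.78 ± 0.23 with overlapping groups. In sulfur deficiency 3 of 13 were higher and none lower, beside 17.6% higher and 14.6% lower of all genes tested. Those higher were LSU1 (1.33 ± 0.27), the transporter SULTR2;1 (0.83 ± 0.16) and the reductase APR1 (0.41 ± 0.091).

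Of 15 senescence genes 8 rose and 0 fell, and of 9 autophagy genes of the ATG8 family 7 rose and 1 fell. The chlorophyll breakdown genes PPH, NYE2, NYE1 and NYC1 rose by 1.06 ± 0.10, 1.89 ± 0.21, 0.95 ± 0.14 and 0.49 ± 0.074, and the factor NAP by 1.58 ± 0.24. SAG12, a protease of late senescence, did not pass the test (adjusted p = 0.068). It stood at 91.2, 32.01, 0, 33.4, 2.503 and 0 CPM in stressed libraries a to f and at 0, 12.9, 0, 0 and 0 CPM in the controls. It was thus present in some libraries of either group. Its higher values were all in libraries of code P3ID34 (stressed a, b and d, control c). ATG8D and ATG8G, which build autophagosomes, rose by 0.82 ± 0.13 and 1.03 ± 0.18, and ATG8E fell (-0.79 ± 0.21). In the iron and copper list, 4 of 15 were higher and 6 lower: the copper superoxide dismutases CSD1 (1.27 ± 0.18) and CSD2 (1.37 ± 0.17) and their chaperone CCS (1.05 ± 0.11) rose, and AT2G30766, annotated only as an uncharacterized protein, and the ferritin FER3 (-0.84 ± 0.12) fell, the former from 0.848, 1.23, 1.34, 0.956 and 0.314 CPM to at most 0.104 CPM.

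The higher calls in the light and cold list, genes that respond rapidly to stress, depended on library c. The light and cold list had 3 of 8 higher and 1 lower with library c and 0 higher and 4 lower without it. ZAT10, a zinc finger repressor, stood at 11.2, 5.28, 12.9, 7.05 and 30.2 CPM in the controls and at 14.4, 14.99, 109, 11.95, 17.6 and 9.87 CPM in stressed libraries a to f; its change was 1.15 ± 0.42 with library c and -0.083 without it (adjusted p = 0.026 and 0.91). DREB2A and CBF3, factors of drought and cold, changed by 0.74 ± 0.25 and 0.61 ± 0.20 (adjusted p = 0.018 and 0.011), and had 0.36 and 0.47 without it (adjusted p = 0.29 and 0.063). Heat shock genes had 4 of 6 higher and 2 without library c, with HSP70 at 1.66 ± 0.22 and HSP101 at 0.67 ± 0.15. Clock genes had 2 of 12 higher, RVE8 (0.67 ± 0.15) and ELF4 (1.1 ± 0.26), and 1 lower, LHY (-0.44 ± 0.14). Among all genes tested 17.6% were higher and 14.6% lower, so the clock list had no excess of calls. None of 8 flowering-time genes was called by edgeR, 0 had an unadjusted p below 0.05, and limma voom and DESeq2 called 0 and 0.

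**Figure D3:**
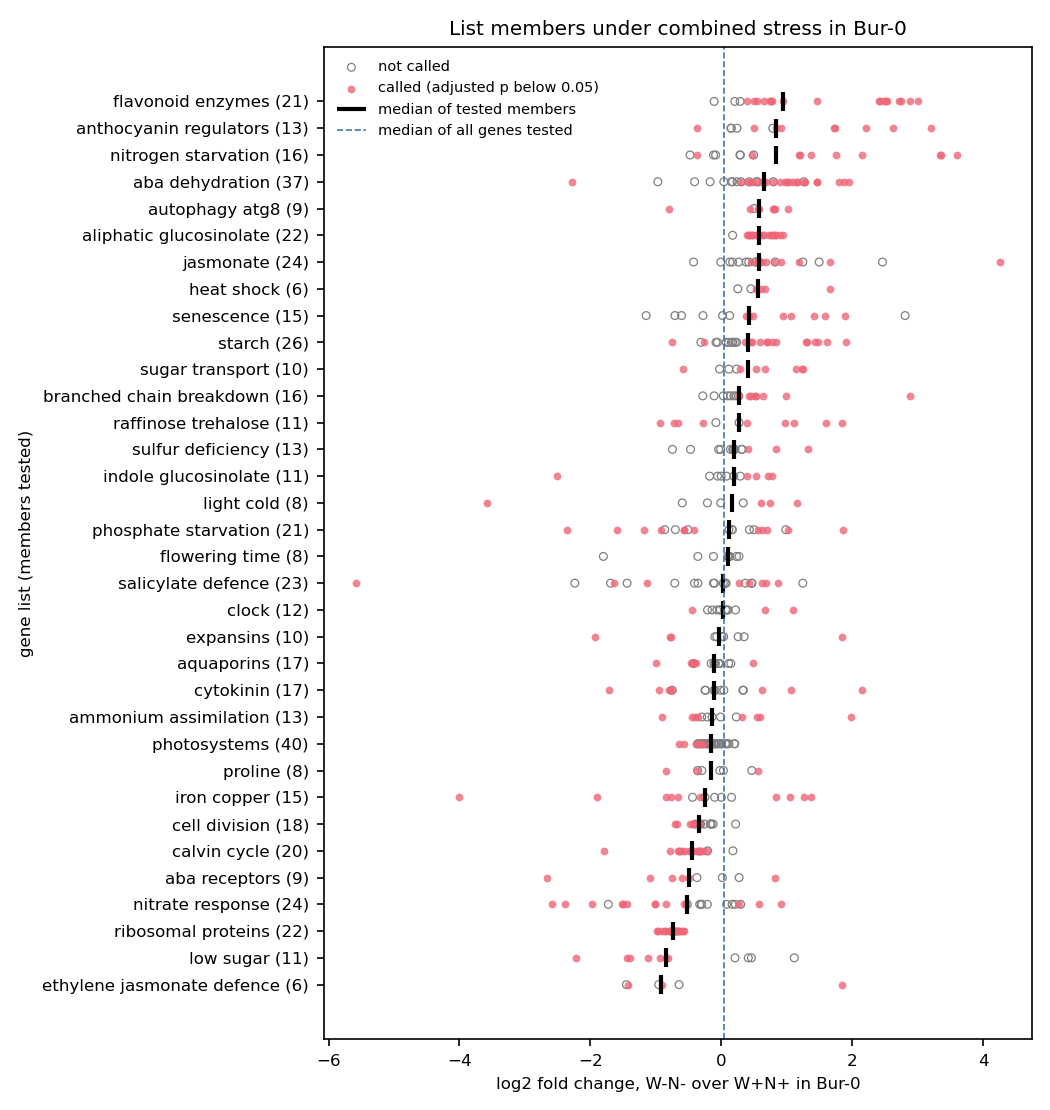
Log2 fold change of every tested member of 34 gene lists in Bur-0, W-N- over W+N+; filled points passed the test, open points did not, and bars are medians. Flavonoid enzymes had the highest median (0.95), and all 22 ribosomal protein genes lie below 0.

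How the combined stress stood to each stress alone was asked by direct contrasts between stressed groups. Relative to low nitrogen alone, 1384 of 20025 genes differed (6.91%), 731 higher (3.65%) and 653 lower (3.26%). Against drought alone, 4942 differed (24.7%), 2776 higher (13.9%) and 2166 lower (10.8%). Without W-N- library c the latter contrast had 1942 higher and 1979 lower; the majority of higher calls did not hold without it. Set against the same 5 controls, drought alone called 654 genes (3.27%), 341 higher (1.7%) and 313 lower (1.56%), and low nitrogen alone 8303 (41.5%), 4368 higher (21.8%) and 3935 lower (19.7%). Flavonoid enzymes were higher in 10 of 21 in drought, in 19 in low nitrogen and in 18 in combined stress, and lower in none. Aliphatic glucosinolate genes were higher in 13, 9 and 21 of 22 in the same order. In the direct contrasts 5 of the 22 were higher than in drought and 8 higher than in low nitrogen, with none lower. None of them departed from the sum of the single effects in the test given below. Phosphate-starvation genes were higher in 12 of 21 and lower in 0 in drought, and higher in 6 and lower in 7 in low nitrogen. Photosystem genes were lower in 25 of 40 in low nitrogen, and clock genes higher in 8 of 12. In the direct contrast with low nitrogen, 8 of the 40 photosystem genes were higher in W-N- and none lower. Of the 12 clock genes, 5 were lower and none higher. Relative to low nitrogen alone, 11 of 37 dehydration genes were higher and 1 lower, and 5 of 9 abscisic acid receptors were lower and 1 higher. VSP2 was higher than in W+N- by 3.66 ± 0.53 (adjusted p = 1.2e-07). LTP3, a lipid transfer protein of the leaf surface, stood at 12.5 to 22.3 CPM in W+N- and at 103 to 337 CPM (median 171) in W-N- (3.65 ± 0.32), and LTP4, a near copy whose reads may be shared, gave 4.26 ± 0.48. SAG12 passed this contrast (adjusted p = 0.0018) on the values given above against 0 to 0.171 CPM in W+N-, levels too low in W+N- for a fold change. Its W-N- counts were mainly in libraries of code P3ID34, and the part of the code was not tested.

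Against low nitrogen alone, of 16 nitrogen-starvation genes 6 were lower in W-N-, 1 was higher and 9 did not pass the test. GLN1;4 stood at 93.8 to 355 CPM in W+N- (median 276) against a median of 36.2 CPM in W-N-, a difference of -2.297 ± 0.23 (adjusted p = 1.8e-13), and NIT4 differed by -2.22 ± 0.18. Nitrate-response genes were higher in 11 of 24, LBD39 by 1.79 ± 0.32 and CLCA by 1.14 ± 0.18, and lower in 3. W-N- and W+N- plants differed in nitrate concentration (1.5 and 0.5 mM) as well as in water, and these cannot be told apart in this contrast. Of 13 ammonium assimilation genes, 3 were higher and 3 lower. AT1G49500, which is on none of the lists, was higher by 2.55 ± 0.41. Of 21 flavonoid enzymes, 3 were higher and 3 lower than in W+N-, and DFR, with 0.48 ± 0.19, did not pass the test (adjusted p = 0.13). ELIP1, a relative of ELIP2, had -1.91 ± 0.21 relative to W+N- and ELIP2 -1.79 ± 0.29, both lower in W-N-.

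Against drought alone, 11 of 16 nitrogen-starvation genes were higher and none lower. GLN1;4 stood at 1.27 to 4.08 CPM in W-N+ and was higher in W-N- by 4.22 ± 0.27 (adjusted p = 4.3e-25). BCAT2 of the branched-chain amino acid list was higher by 3.48 ± 0.28, and AT1G34060 and NUDT24, on none of the lists, by 3.51 ± 0.22 and 2.96 ± 0.22. Among phosphate genes, GDPD1 stood at 7.43 to 38.1 CPM in W-N+ and PAP17 at 37.8 to 124 CPM, both above all W-N- libraries, with differences of -4.74 ± 0.29 and -3.39 ± 0.18 (adjusted p = 4.5e-27 and 4.7e-31). Of the phosphate list 10 of 21 were lower than in drought alone and 1 higher, and of ribosomal protein genes 18 of 22 were lower. ZAT10 was higher by 2.54 ± 0.43 with library c and by 1.34 without it (adjusted p = 0.0056).

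**Figure D4:**
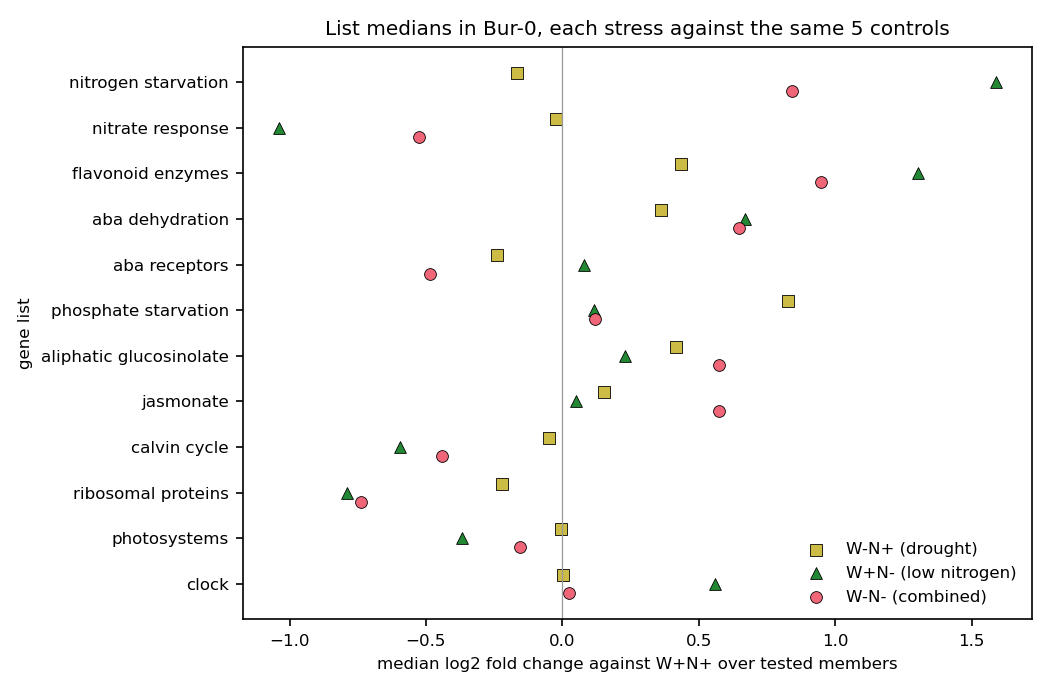
Median log2 fold change over the tested members of 12 gene lists in drought, low nitrogen and combined stress of Bur-0, all against the same 5 control libraries, so that the 3 medians of a list share the controls. The phosphate list stands at 0.83 in drought and 0.12 in combined stress, and the aliphatic glucosinolate list at 0.58 in combined stress.

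Whether the combined effect equalled the sum of the single effects was tested as combined minus drought minus low nitrogen, with the controls shared by all 3 terms. Nitrate stood at 1.5 mM in combined stress but at 0.5 mM in low nitrogen alone. A departure from the sum therefore cannot be told apart from an effect of this difference in concentration. The combined effect departed from the sum in 269 of 20025 genes (1.34%), 124 above it (0.619%) and 145 below it (0.724%). In 267 of the 269 the departure was opposite in sign to the sum of the single effects. Departure and sum are computed from the same control and single-stress libraries, and this share was not tested. The split was 105 above and 198 below without W-N- library c, 57 and 26 in code P3ID33 alone, and 31 and 74 in P3ID34 alone. Phosphate-starvation genes were below the sum in 11 of 21 and above it in none: GDPD1 had 2.38 in drought, -2.70 in low nitrogen and -2.36 in combined stress, -2.05 ± 0.45 from the sum (adjusted p = 0.0035), and SPX1 had 1.246, -1.08 and -1.18, -1.34 ± 0.28 from it. Nitrate-response genes were above the sum in 5 of 24, CLCA by 1.13 ± 0.24 and LBD39 by 1.73 ± 0.41. Among the largest departures were also AT1G49500 (2.59 ± 0.50) and LTP3 (2.60 ± 0.43) above the sum and CYP722A1, a cytochrome P450 (-1.71 ± 0.36), AT4G01390 (-1.59 ± 0.28), AT5G20790, an uncharacterized protein (-1.75 ± 0.49), and GLN1;4 (-1.68 ± 0.37) below it.

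The 3 largest positive departures, among genes averaging 5 CPM or more, shrank without library c. TCH4, a touch-induced cell wall enzyme, stood at 6.55, 6.74, 116, 4.48, 14.6 and 14.4 CPM in stressed libraries a to f and at 11.9, 10.03, 29.4, 17.2 and 90.9 CPM in the controls; its departure was 2.74 ± 0.52 with library c and 1.57 without it (adjusted p = 0.00058 and 0.048). DIC2, a mitochondrial dicarboxylate carrier, had 3.06 ± 0.66 and 1.95 (adjusted p = 0.0028 and 0.079), and AT4G29780, annotated as a nuclease, 3.23 ± 0.62 and 1.94 (adjusted p = 0.00058 and 0.039). Control library f, also of code P3ID33, was high for the same 3 genes, at 90.9, 62.8 and 66.2 CPM. Without library c, 303 genes departed from the sum, 208 of them among the 269; without control library f the number was 132.

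Bur-0 was then set against the mean of the other 4 accessions, which have their own controls. The mean of the other 4 accessions itself changed in 10469 genes (52.3%). Across the 20025 genes the combined effects correlated with Pearson r = 0.728, a description over genes that share libraries, and 6292 of the 6451 genes called in Bur-0 (97.5%) had the same sign in the mean of the others. The test of the difference called 121 genes (0.604%), 99 higher in Bur-0 (0.494%) and 22 lower (0.11%). Without library c 52 genes were called, 50 of them among the 121. The nitrogen-starvation list held 4 of 16 members among the higher, and the sulfur list 3 of 13. Both counts are from the fit with library c, and members were not counted without it.

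GLN1;4 rose more in Bur-0 than in the mean of the others, 3.60 against 0.16 in Col-0, 1.73 in Cvi-0, 0.78 in Sha and 2.69 in Tsu-0, a difference from their mean of 2.26 ± 0.29 (adjusted p = 4.1e-08, and 6.5e-06 without library c). AT1G34060 had 4.08 against 1.85, 1.06, 1.63 and 3.67 in the same order (2.02 ± 0.25). PS2 differed in direction: it rose by 1.85 in Bur-0 and had -0.84, -0.73, -1.96 and -0.92 in the other 4, a difference of 2.97 ± 0.41 (adjusted p = 4.7e-07). AT3G28270, a putative transmembrane protein of the DUF677 group, did not change in Bur-0 beyond the test (0.10 ± 0.21) and rose by 1.47 in the mean of the others, a difference of -1.37 ± 0.23 (adjusted p = 8e-05).

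Further differences that passed the test were those of HPL1, a hydroperoxide lyase that makes leaf aldehydes (2.38 against 1.01, difference 1.37 ± 0.24), RL3, a RADIALIS-like Myb protein (2.36 against 0.44, difference 1.91 ± 0.33), AT3G21100, an RNA-binding protein (1.19 against 0.49, difference 0.70 ± 0.11), and AT2G40920, an F-box protein (-1.19 against -0.25, difference -0.94 ± 0.15). VSP2 rose by 4.26 in Bur-0 and by 1.28 in the mean of the others (difference 2.98 ± 0.60, adjusted p = 0.0023), and the urea transporter DUR3 and GLN1;1 differed by 0.94 ± 0.20 and 0.80 ± 0.15. The differences of VSP2, DUR3 and GLN1;1 are given with library c only. For NUDT24 the difference of 0.77 ± 0.25 did not pass the test (adjusted p = 0.14).

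**Figure D5:**
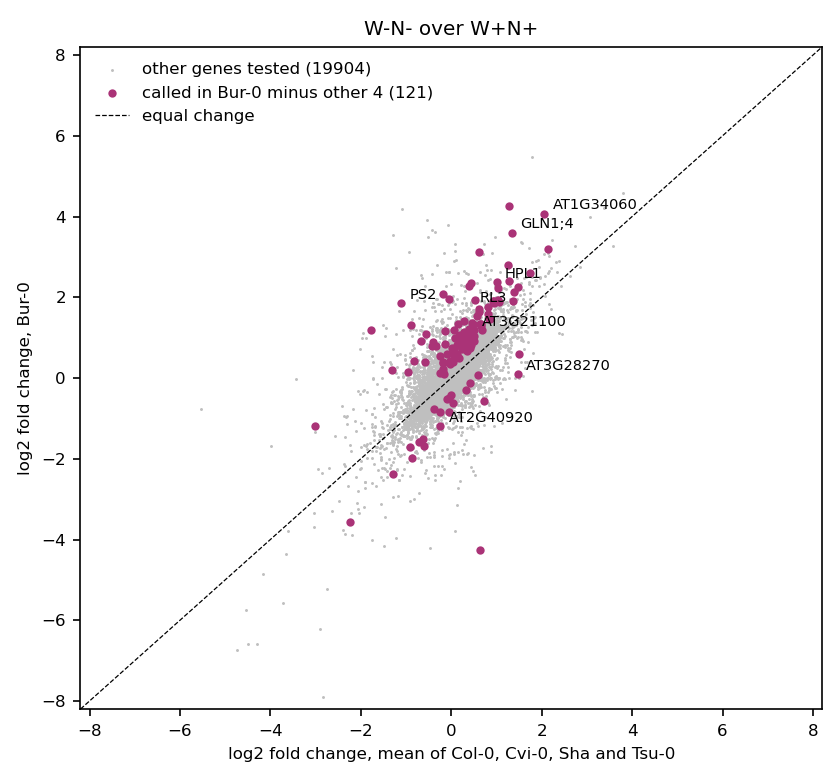
Log2 fold change of W-N- over W+N+ in Bur-0 against the mean of Col-0, Cvi-0, Sha and Tsu-0 for 20025 genes; the 121 genes whose difference passed the test are coloured and the 8 of lowest p that average 5 CPM or more are named. PS2 lies at 1.85 for Bur-0 and -1.11 for the others, and AT3G28270 at 0.10 and 1.47.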

How the data were processed

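Strand-specific mRNA libraries from rosettes (RNeasy Plant Mini and TruSeq Stranded mRNA kits, per the labels' protocols) were trimmed with Trimmomatic 0.36 and aligned with HISAT2, per the submitters' processing notes. Which program counted reads, whether it used strand and on which genome build is not given in the sources used here. Raw counts were deposited by the authors for 32833 genes; 4657 were at 0 throughout. From these counts, edgeR 4.0.16 (R 4.3.3) with TMM library sizes, filterByExpr (20025 genes kept) and quasi-likelihood tests was fitted to the libraries of all accessions, with accession and treatment as 20 groups and the experiment code as covariate; a call is a Benjamini-Hochberg adjusted p below 0.05. CPM use TMM-scaled library sizes, and standard errors were taken from the fold change and its F statistic. Groups came from the sample titles. Totals of 14038906 to 55325148 counts limit precision mainly for genes of a few CPM. Named genes were the 12 largest rises and falls, up to 5 members per list of lowest adjusted p, the 8 of lowest p between Bur-0 and the other accessions, the 6 largest each way in the other contrasts, and genes that differed most in a library standing apart; floors of 5 CPM applied except within lists. The members and lists were chosen with earlier results of these data known. Promoter windows came from RefSeq TAIR10.1, with which 32548 gene IDs matched. The scripts were tested on simulated data. Alternatives were RLE scaling, no filter, Bur-0 libraries alone, the 11 libraries alone, no code term, fits within each code, a block for the replicate letter, limma 3.58.1 voom, DESeq2 1.42.0 and leaving out each of the 11 libraries; leaving out the 5 libraries farthest from their groups was added after seeing the data.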

Additional observations from a re-analysis of the deposited data

Results flagged for a closer look

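In tests for a lone extreme library (Dixon's criterion, which chance meets in about 1 of 20 groups), 5 of 54 sets of libraries had one. Total counts were extreme in W-N- library b (39692929) and in W+N+ library c (55325148). The distance from its group was extreme in W-N- library c (0.6915 in log2 CPM). GLN1;4 was extreme in W-N- library c (113.6 CPM), and PDF1.3 in W+N+ library a (54.05 CPM).

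The combined effect differed between Bur-0 and the mean of the other 4 accessions in 121 genes by edgeR's test of the difference itself, and the 8 of lowest p among those averaging 5 CPM or more are given here. The differences, Bur-0 minus the others on the log2 scale, were 2.021 for AT1G34060 (adjusted p = 2.3e-08), 2.264 for GLN1;4 (adjusted p = 4.1e-08) and 2.966 for PS2 (adjusted p = 4.7e-07). They were 0.7005 for AT3G21100 (adjusted p = 9.7e-06), 1.915 for RL3 (adjusted p = 0.00019) and 1.372 for HPL1 (adjusted p = 3e-04). In the other direction they were -0.9427 for AT2G40920 (adjusted p = 1.5e-05) and -1.372 for AT3G28270 (adjusted p = 8e-05). All 8 passed the test also without library c of the combined stress, but in libraries of code P3ID34 alone PS2 was the 1 gene called and the other 7 lost the call.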

How the results depend on the processing

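The number of genes called between W-N- and W+N+, 6451, was 2495 in libraries of code P3ID34 alone and 5688 to 6357 when each of the 11 libraries was left out. Against low nitrogen alone, 1384 became 250 in P3ID33 alone and 2216 without the 5 libraries farthest from their groups, and ranged from 1038 to 1516 with 1 of the 6 W-N- libraries left out. Against drought alone, 4942 became 1624 in P3ID34 alone, with a range of 3921 to 4986 over the same 6; libraries of the single stresses and of the other accessions were not left out one at a time. Departures from the sum, 269, became 492 in Bur-0 alone, 138 without the code term, 83 in P3ID33, 105 in P3ID34 and 619 without the 5 far libraries; the range was 132 (without control f) to 303 (without W-N- c), with 177 without control d. Differences from the other accessions, 121, became 53 without the code term, 323 in P3ID33, 1 in P3ID34 and 199 with DESeq2; the range was 52 (without W-N- c) to 174 (without W-N- a), with 64 without W-N- e, 66, 79 and 64 without controls c, d and e. The causes were not tested. With the replicate letter as a block the counts were 6305, 1355, 4846, 233 and 120; the letters do not pair the libraries, since correlations of deviations between same-lettered libraries ran from -0.282 to 0.261 and library f alone correlated best with its own letter. ZAT10 changed sign, to -0.058 without the far libraries and -0.083 without W-N- c (up to 1.775 without control f), and the departure of AT4G29780 was -0.22 in P3ID34 alone. Of 4576 values for 216 results on named genes, these included, 4394 kept direction and side of the threshold, 179 lost the call and 3 changed sign. The share of higher calls between W-N- and W+N+ was 54.7% with TMM and 53.6% with RLE, but 48.8% without W-N- c (2775 higher, 2913 lower) and 45.7% in P3ID34 alone (1141 higher, 1354 lower), where most calls were lower. Against low nitrogen alone the majority turned likewise, from 52.8% higher to 48.5% without W-N- c, 44.8% in P3ID34 alone, 49.5% without the far libraries and 48.8% with limma voom. Against drought alone it turned from 56.2% to 49.5% without W-N- c and 45.1% in P3ID34 alone.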
